A study of Mus musculus with 4 samples.

Results

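Oxidative phosphorylation (OXPHOS) genes were followed in single cells of the mouse prefrontal cortex (PFC) at 4 postnatal ages. A gene was a member if its symbol began with Nduf, Uqcr, Atp5, Cox4, Cox5, Cox6, Cox7 or Cox8, was Sdha, Sdhb, Sdhc or Sdhd, or began with mt-Nd, mt-Co, mt-Atp or mt-Cytb, and pseudogene symbols ending in -ps were left out. The rule used symbols alone and no measured value. It took 106 of the 29281 genes listed in any library, and 104 of the 106 were listed in all 4 libraries. Of these, 93 are nuclear genes and 13 are carried by mitochondrial DNA. The nuclear set comprised 38 complex I genes, 8 complex I assembly factors (Ndufaf genes), 4 complex II genes, 8 complex III genes, 18 complex IV genes and 17 complex V genes. The mitochondrial set comprised 7, 1, 3 and 2 genes of complexes I, III, IV and V.

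PFC tissue of female C57BL/6J mice (C57BL/6 in the labels) at postnatal day 1 (P1), P4, P10 and P84 (Adult) was dissociated with protease XXIII and papain and captured on the BD Rhapsody microwell system, which tags each mRNA molecule at its 3' end with a unique molecular identifier (UMI). The methods name 2 mice per age and do not state whether their cells were pooled. There is 1 library per age, and its cells cannot be assigned to a mouse. The labels name no genotype or treatment beyond the strain. With 1 library per age no test across mice was possible, so ratios of summed UMIs are given with exact 95% intervals that cover counting error only.

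In oxidative phosphorylation, complexes I and II pass electrons from metabolic fuels through complex III to complex IV, which reduces oxygen, and complex V (ATP synthase) uses the resulting proton gradient to make ATP. Complexes I, III, IV and V are built from subunits of both genomes, whereas complex II is wholly nuclear, so the nuclear and mitochondrial transcripts must be supplied side by side. Neurons depend on this route for most of their ATP, and fast-spiking parvalbumin interneurons are known for dense mitochondria. Several nuclear subunits have a second gene, such as the muscle-type Cox6a2 or the oxygen-sensitive Cox4i2, whose product takes the place of the common subunit in certain tissues.

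A site for a regulator of respiratory genes, which the rule did not use, stood in part of the nuclear members' promoters. A RefSeq promoter window (GRCm38.p6, 250 bases before to 50 after the start) was matched for 76 of the 93 nuclear members, and 17 members had no window, Atp5a1, Cox4i1, Cox4i2, Cox6a2, Ndufa4l2 and Ndufs1 among them. The palindromic site of nuclear respiratory factor 1 (NRF1), a known activator of respiratory chain genes, is the run of capitals in the Atp5g2 window. It was found on either strand in 7 of the 76 windows (9.21%), against 1.07% of 27025 genes and 1.47% of 17491 protein-coding genes in the same table. With any base at position 5, a relaxed form that also takes in every palindrome, 19 windows matched on either strand (25%), against 5.19% of all genes and 7.17% of protein-coding genes. The ETS-type site ACTTCCGG stood in 5 windows (6.58%), against 5.69% of protein-coding genes, and the oestrogen-related receptor (ERR) site TCAAGGTCA in 2 (2.63%), against 0.377%. A match is a description of these letters and not evidence of binding. Windows are shown for some of the members described with values in the later paragraphs, so that the shared site and its differing flanks can be read, on the strand of the gene and with the matched site in capitals.
Atp5g2 (chr15:102671070-102671099, minus strand, site at -42 from the start): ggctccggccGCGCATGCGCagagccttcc
Atp5k (chr5:108434430-108434459, minus strand, site at -50): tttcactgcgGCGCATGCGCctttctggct
Cox6a1 (chr5:115349101-115349130, minus strand, site at -162): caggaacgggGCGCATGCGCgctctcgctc
Ndufa11 (chr17:56717692-56717721, plus strand, site at -60): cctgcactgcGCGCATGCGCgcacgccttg
Ndufaf4 (chr4:24897960-24897989, plus strand, site at -113): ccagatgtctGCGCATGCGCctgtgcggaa
Sdha (chr13:74350319-74350348, minus strand, site at -98, relaxed match on the opposite strand): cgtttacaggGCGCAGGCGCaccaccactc
Atp5g3 (chr2:73911360-73911388, minus strand, site at -52, ERR site on the opposite strand): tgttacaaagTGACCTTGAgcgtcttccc
The capitals are the same 10 letters in Atp5g2, Atp5k, Cox6a1, Ndufa11 and Ndufaf4, while the flanks differed from gene to gene. The other two windows with the palindrome were those of Ndufaf5 and Uqcrc1, where it stood after the start, at 16 and 30.

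The libraries held 11673, 19646, 16114 and 15961 barcodes at P1, P4, P10 and Adult, with 200198548 to 340724049 UMIs each. Of the 63394 barcodes, 59918 passed the minimums of 1000 UMIs and 1000 genes and the limit of 15% on mitochondrial UMIs. Cells were clustered within each age with the OXPHOS members, every other mitochondrial gene, ribosomal protein genes and the other energy-metabolism lists left out. A cluster received a name ending in -like from the marker list of a class, in most classes with a marker among its leading genes. The names excitatory-like and IT-like rested on the mean level of their lists and needed no such marker. A P1 cluster of 566 cells led by Sema3c, Eomes and Zfhx4 was thus named IT-like. Clusters holding 3643 cells (3.37% to 10.6% of an age) stayed without a name. The header of the P1 file names its library P0, gives another version of the BD pipeline than the headers of the later ages (the methods name 1 version for all ages), and alone carries an intronic read setting. P1 is the age in the labels, and what separates P1 from later ages cannot be told apart from the processing. Slc17a7, which loads glutamate into vesicles, stood at 45.2, 219, 1192 and 2116 CPM in excitatory-like cells from P1 to Adult, so this marker was low at P1. Barcodes shared between libraries numbered 319 to 368 for pairs of P4, P10 and Adult and 12 to 20 for pairs with P1.

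The level of the nuclear set is given as CPM, the UMIs summed over the cells of a class and scaled to 1000000 UMIs after mitochondrial and ribosomal protein genes were taken out of the total. From P1 through P4 and P10 to Adult, the nuclear set took 10391, 13519, 15404 and 14524 CPM in excitatory-like cells. In Sst-like interneurons it took 10573, 14102, 16963 and 16370 CPM, and in Vip-like interneurons 9474, 14025, 17729 and 15884 CPM. These neuronal classes had their lowest level at P1 and their highest at P10. Pvalb-like interneurons, first named at P4 in the clustering used here, stood at 15253, 24682 and 24509 CPM, the highest of every class named at P10 and in Adult. Among excitatory subclasses, layer 5 pyramidal tract (L5 PT)-like cells were the highest at each age, with 11545, 14707, 18682 and 17504 CPM. Intratelencephalic (IT)-like cells stood at 10561, 13369, 13656 and 13861 CPM, although only 1813 cells at P10 were named IT-like and other P10 clusters of excitatory type carried no subclass name. A class of the same name at different ages rests on the same markers and is not a traced lineage, and in summed UMIs the level is relative to the other RNA of the same cells.

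**Figure D1:**
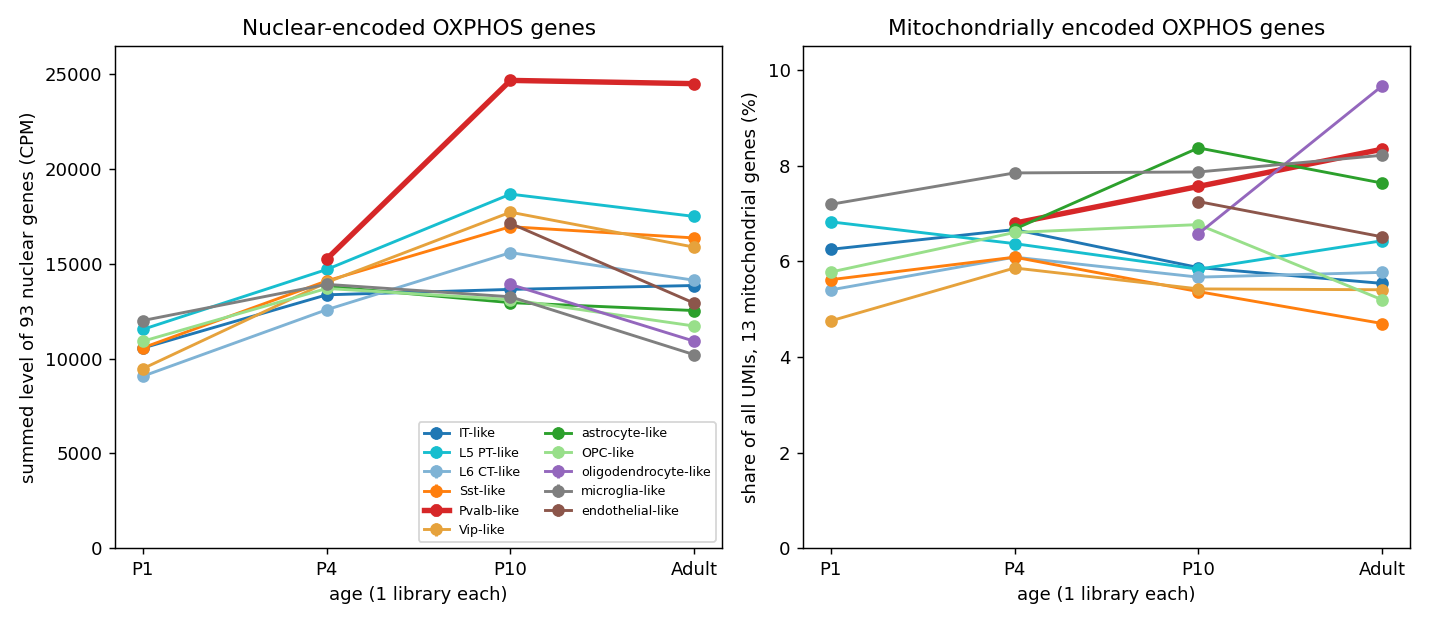
Summed level of the nuclear OXPHOS genes in CPM (left) and share of the 13 mitochondrial genes in all UMIs in percent (right) by age, with a line for each of 11 classes, 1 library per age and both axes from 0. Pvalb-like cells (bold red) stand at 15253 CPM at P4, near the other neurons, and later at 24682 and 24509 CPM, above every other line.

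The step of the Pvalb-like class between P4 and P10 was the largest change of the nuclear set in any neuronal class between neighbouring ages. Parvalbumin interneurons are fast-spiking inhibitory cells. The ratio of P10 to P4 was 1.62-fold (log2 0.69, interval 0.69 to 0.70). The same ratio was 1.203-fold (log2 0.27, interval 0.26 to 0.28) in Sst-like, 1.26-fold in Vip-like, 1.27-fold in L5 PT-like and 1.14-fold in excitatory-like cells. From P10 to Adult the Pvalb-like ratio was 0.993-fold, or 1.004-fold without predicted doublets. It was 1.017-fold under TMM scaling, in which edgeR matches libraries by a trimmed mean of log ratios.

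Member by member, 62 of 88 nuclear genes with at least 50 UMIs over both ages were at least 1.5-fold higher at P10 than at P4 in Pvalb-like cells and 0 were at least 1.5-fold lower. Of all 11911 genes tested in that comparison, 17.6% were that much higher and 25.1% that much lower. Under TMM scaling, which here moved all genes upward by 0.14 (log2), 71 members were higher (22.0% of all genes) and 0 lower (19.1%). The median log2 ratio by CPM was 0.68 over the members and -0.12 over all genes, and 86 of the 88 members lay above a ratio of 1. Cox4i2, Cox7b2, Cox8b, Cox8c and Ndufa4l2 had too few UMIs to be tested. In Sst-like cells 7 of 88 members were higher (12.7% of all genes), in Vip-like cells 12 of 86 (13.4%), in L5 PT-like cells 12 of 87 (14.7%) and in excitatory-like cells 4 of 90 (18.9%). None of these 4 classes had a member that much lower, against 21.3%, 17.3%, 21.1% and 20.2% of all genes. Under TMM scaling, which moved all genes by 0.06, 0.10, 0.09 and 0.02 (log2) in the same order, 13 members were higher in Sst-like (14.6% of all genes), 21 in Vip-like (16.5%), 18 in L5 PT-like (17.1%) and 4 in excitatory-like cells (19.5%). Again 0 members were lower in each, against 18.8%, 13%, 17.6% and 19.3%. The share of members past the fold was thus near or below that of all genes in the 4 classes by CPM, and above it in Vip-like and L5 PT-like cells under TMM scaling. By CPM the medians (0.28, 0.35, 0.33 and 0.20) were above the all-gene medians of -0.13, -0.09, -0.12 and -0.08. Between P4 and P10 the median Vip-like cell went from 7799 to 16583 UMIs and predicted doublets from 13.9% to 8.30% of that class. Summed excitatory markers went from 866 to 464 CPM and astrocyte markers from 285 to 573 CPM in Vip-like cells. The highest single astrocyte marker gave 246 and 501 CPM of the latter sums. The part of these markers in the Vip-like values was not tested.

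**Figure D2:**
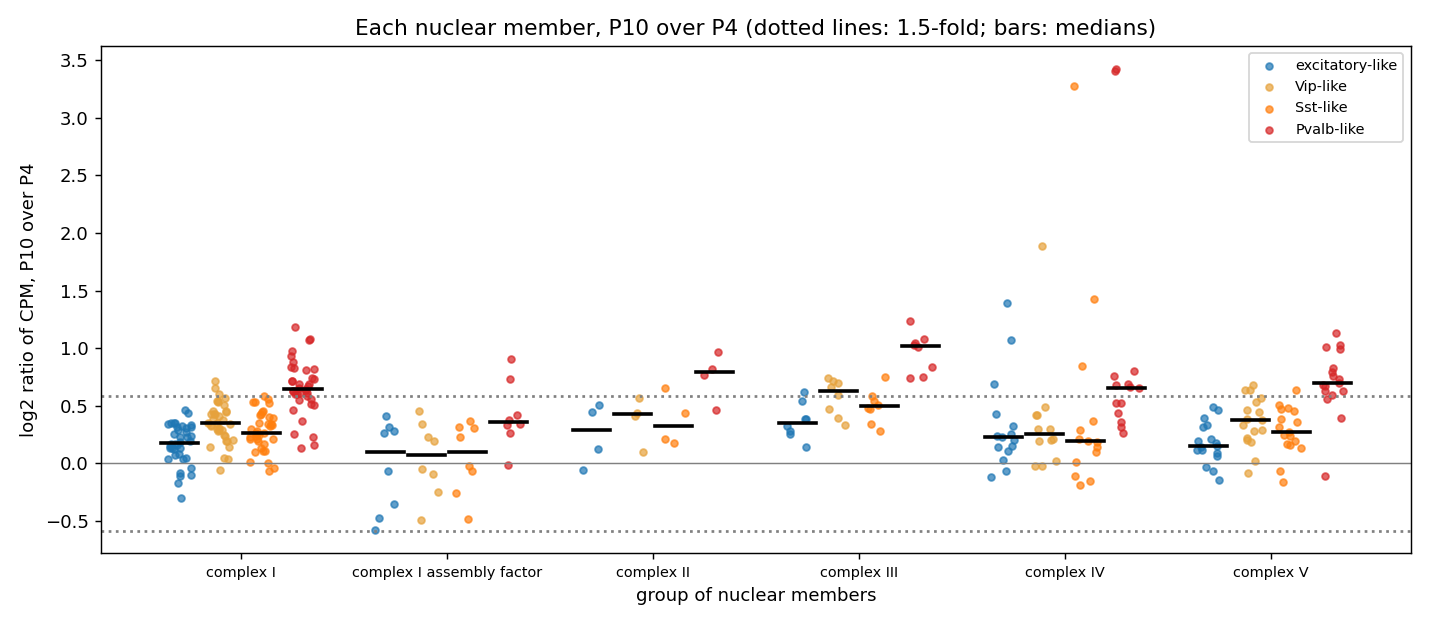
Log2 ratio of P10 to P4 for each nuclear member (points) by complex in excitatory-like, Vip-like, Sst-like and Pvalb-like cells, with bars at the median and dotted lines at 1.5-fold. In Pvalb-like cells the points of every complex shift upward and complex III has the highest median (1.02), while in the other classes most points lie between the dotted lines.

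The increase in Pvalb-like cells ran through all complexes. The assembly factors had a lower median than each of complexes I to V, and differences between these groups were not tested. In complex I, which takes electrons from NADH, 27 of 37 tested genes were past the fold (median log2 0.65). Ndufs1, a core iron-sulfur subunit, stood at 91.5, 208 and 261 CPM at P4, P10 and Adult, and its P10 to P4 ratio was 2.28-fold (log2 1.19, interval 1.08 to 1.30). Ndufv1, which binds the flavin, stood at 64.8, 106 and 144 CPM. Ndufa4, named for complex I but known to associate with complex IV, stood at 445, 681 and 729 CPM. All of these Pvalb-like levels were lowest at P4. Of the 8 assembly factors, which help build complex I without staying in it, 2 were past the fold (median 0.36), beside 17.6% of all genes. Ndufaf5 stood at 34.6, 64.8 and 57.1 CPM. Ndufaf4, whose promoter window is shown with an NRF1 site, stood at 70.1, 88.5 and 96.8 CPM and was not past the fold from P4 to P10.

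In complex II, which links the citric acid cycle to the chain, 3 of 4 genes were past the fold in Pvalb-like cells. Sdha, the flavoprotein, stood at 112, 191 and 367 CPM at P4, P10 and Adult, and Sdhd, a membrane anchor, at 153, 299 and 229 CPM. Sdhb, the iron-sulfur subunit, stood at 99.7, 176 and 131 CPM. Sdha was thus the only gene of the 4 that was higher in Adult than at P10, and Sdhb, Sdhc and Sdhd were all lower there. Complex III was past the fold in 8 of 8 genes, with the highest median of any complex (1.02). Uqcrfs1, its Rieske iron-sulfur protein, stood at 135, 319 and 262 CPM (P10 to P4 2.36-fold), Uqcrc1, a core subunit, at 92.7, 196 and 219 CPM and Uqcrc2, the other core subunit, at 231, 389 and 427 CPM.

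Complex IV held the member with the largest ratio in Pvalb-like cells, Cox6a2, which is described with its paralogs, and 8 of its 14 tested genes were past the fold (median 0.66). Cox5a and Cox5b, nuclear subunits near the catalytic core, stood at 361, 569 and 415 CPM and at 159, 269 and 246 CPM. Cox4i1, the common form of subunit 4, stood at 369, 500 and 621 CPM and was not past the fold at P10 (1.35-fold). Cox6a1, Cox7a2 and Cox7c were likewise under 1.5-fold (1.28-fold or less), and Cox7b (218, 381 and 410 CPM) was past it. In complex V 14 of 17 genes were past the fold (median 0.70). Atp5a1, the alpha subunit and the nuclear member with the most UMIs, stood at 758, 1542 and 1523 CPM, a 2.04-fold ratio of P10 to P4 (log2 1.03, interval 0.99 to 1.06). Atp5b, the catalytic beta subunit, stood at 444, 740 and 802 CPM.

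The genes Atp5g1, Atp5g2 and Atp5g3 encode the same mature c subunit of the ATP synthase ring from separate loci, and they did not share a course. In Pvalb-like cells Atp5g1 stood at 323, 709 and 494 CPM and Atp5g3 at 601, 1212 and 991 CPM. Atp5g2 stood at 271, 251 and 207 CPM, the lowest P10 to P4 ratio among the tested members of the class (0.925-fold). In excitatory-like cells Atp5g2 was at 244, 191, 182 and 181 CPM from P1 to Adult and in oligodendrocyte precursor (OPC)-like cells at 525, 379, 371 and 240 CPM. In microglia-like cells (34, 77, 706 and 1049 cells from P1 to Adult) Atp5g2 was at 620, 445, 530 and 357 CPM. Its level was therefore higher in these glial classes than in excitatory-like cells at every age, by 1.97-fold for microglia-like cells in Adult, whereas Atp5g1 in Adult was lower in microglia-like (163 CPM) than in excitatory-like cells (294 CPM). The Atp5g2 window holds the NRF1 palindrome, and the Atp5g3 window holds a relaxed NRF1 match at 12 beside the ERR site shown. None of the motifs searched was in the Atp5g1 window. Atp5k and Ndufa11, accessory subunits of complexes V and I whose windows hold the same palindrome as Atp5g2, stood at 277, 491 and 466 CPM and at 38.1, 70.2 and 63.2 CPM in Pvalb-like cells.

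Depth, doublet calls and other markers moved with the Pvalb-like step. The median cell had 7424, 23866 and 18943 UMIs at P4, P10 and Adult, and predicted doublets, which were kept, made up 1.90%, 13% and 10.3% of the class. With every cell thinned to 2000 UMIs the P10 to P4 ratio of the nuclear set was 1.61-fold, and without predicted doublets it was 1.66-fold. The list of 8 excitatory markers summed to 272, 358 and 427 CPM in the class and the list of 7 astrocyte markers to 59.8, 242 and 220 CPM, with no marker of either list at 0. The highest single astrocyte marker gave 34.3, 157 and 155 CPM of the latter sums. The list of 7 oligodendrocyte markers summed to 46.0, 47.2 and 626 CPM, with Mal at 0 at P4 and Mog at 0 at P10. The part of these other markers in the Pvalb-like values was not tested. The Pvalb list, which named the class, summed in it to 3385, 2505 and 5797 CPM at P4, P10 and Adult. The Sst list, which shares Lhx6 with it, summed to 2404, 1982 and 1501 CPM. The Pvalb gene itself had 2 UMIs at P4 (0.229 CPM) and stood at 7.19 and 630 CPM at the later ages, so at P4 the name rested on Erbb4, Lhx6, Tac1 and others of the list. No cluster was named Pvalb-like at P1 in the clustering used here (Leiden resolution 0.5), where 1255 Sst-like cells carried the Pvalb list at 3097 CPM. At resolution 1.0 a P1 cluster of 450 cells was named Pvalb-like, apart from an Sst-like cluster of 664 cells. Whether the P4 class holds the same kind of cell as the later ones was not tested.

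Between inhibitory classes of the same library, Pvalb-like and Sst-like cells were near each other at P4 and apart later. The ratio of Pvalb-like to Sst-like cells in the nuclear set was 1.08-fold, 1.46-fold and 1.497-fold at P4, P10 and Adult (adult log2 0.58, interval 0.57 to 0.59). Members at least 1.5-fold higher in Pvalb-like cells numbered 1 of 86, 26 of 88 and 27 of 87 at these ages, against 9.16%, 10% and 11.7% of all genes. Those as much lower numbered 0, 1 and 0, against 10.2%, 8.43% and 10.6%. Predicted doublets made up 27.6% of Sst-like cells at P4, where the excitatory list summed to 870 CPM (357 and 472 CPM at P10 and in Adult), and without predicted doublets in any library the adult ratio was 1.57-fold. In Adult the median log2 ratio was 0.51 over the members and 0.02 over all genes. By complex, 9 of 13 tested genes of complex IV, 8 of 17 of complex V, 6 of 37 of complex I, 2 of 8 of complex III, 2 of 8 assembly factors and 0 of 4 of complex II were past the fold. Cox7b (410 CPM in Pvalb-like against 242 in Sst-like cells) and Cox4i1 (621 against 382 CPM) were among them. Ndufa12, an accessory subunit of complex I, stood at 460 CPM in adult Pvalb-like cells against a median of 188 CPM over the adult classes.

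In excitatory-like cells, the projection neurons of the cortex, the nuclear set was 1.30-fold higher at P4 than at P1 (log2 0.38, interval 0.377 to 0.382). It was 1.14-fold higher at P10 than at P4 and 0.943-fold of P10 in Adult. This class pools subclasses, and IT-like cells numbered 6420 among 12420 for P4, 1813 among 7452 for P10 and 3108 among 6611 for Adult. Within IT-like cells P10 over P4 was 1.02-fold, and Adult over P10 was 1.015-fold (1.107-fold under TMM scaling). Each other named excitatory subclass was, like the pool, higher at P10 than at P4 and in Adult. The part of subclass make-up in the pooled ratios was not tested. From P1 to P4, 24 of 90 members were at least 1.5-fold higher in excitatory-like cells (14.8% of all genes) and 1 lower (32.7%). The median log2 ratio was 0.39 against -0.20 over all genes. Of the 24, 15 belonged to complex I. Under TMM scaling, which moved all genes upward by 0.21 (log2) in this comparison, 47 were higher (21.3%) and 0 lower (25.7%). This comparison spans the change of pipeline version. From P4 to Adult, 9 of 90 members were higher (26.5% of all genes) and 6 lower (33.4%), both below the background, and under TMM scaling 10 were higher (27.9%) and 3 lower (31.8%). The astrocyte list summed to 95.3, 160, 769 and 1063 CPM in excitatory-like cells from P1 to Adult. Its highest single marker at each age gave 69.0, 136, 742 and 1021 CPM of these sums. The oligodendrocyte list summed to 41.7, 44.9, 55.6 and 201 CPM, with 28.3, 35.3, 45.3 and 102 CPM from its highest marker. No marker of either list was at 0, and their part in these changes was not tested.

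The core subunits Sdha and Ndufs1 were among the 9 excitatory members that were higher in Adult than at P4. Sdha (chr13:74322254-74350280, minus strand) stood at 92.5, 97.9, 134 and 233 CPM at P1, P4, P10 and Adult, 2.37-fold from P4 to Adult. Ndufs1 stood at 90.0, 96.7, 123 and 150 CPM. Both genes were higher at every later age. Atp5s (chr12:69724950-69744660, plus strand), a coupling-factor-like gene, stood at 17.2, 19.6, 25.7 and 32.8 CPM, and Cox8a, a small complex IV subunit, at 257, 239, 300 and 377 CPM. Cox7a1, the muscle form of subunit 7a, and Cox7b2 were also past the fold but stayed under 2 CPM.

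Of the 8 assembly factors, 4 were past the fold downward in excitatory-like cells between P4 and Adult and 0 upward, beside the 33.4% and 26.5% of all genes (median log2 -0.32, against -0.13 over all genes). Under TMM scaling Ndufaf4 (0.659-fold) and Ndufaf6 (0.552-fold) were still past it, and Ndufaf2 (0.679-fold) and Ndufaf5 (0.675-fold) were not. Ndufaf6 (chr4:11051045-11076205, minus strand) stood at 26.7, 19.1, 13.7 and 10.2 CPM, lower at each later age and at 0.534-fold of P4 in Adult. Ndufaf4 (chr4:24898083-24905001, plus strand) stood at 61.7, 77.2, 60.7 and 49.2 CPM, Ndufaf5 (chr2:140170649-140203689, plus strand) at 39.0, 41.9, 40.2 and 27.3 CPM and Ndufaf2 (chr13:108002715-108158623, minus strand) at 38.1, 48.0, 32.1 and 31.5 CPM. In Pvalb-like cells, by contrast, Ndufaf2 stood at 44.0, 52.9 and 66.3 CPM at P4, P10 and Adult. Cox6b2, the testis form of subunit 6b, was also lower in excitatory-like cells but at 0.531 CPM at P4 and 0.108 in Adult. Complex II genes went separate ways, since Sdhb stood at 112 CPM at P4 and 87.1 in Adult and Sdhc at 105 and 74.0, against the higher Sdha. Atp5g1 (469 CPM at P10, 294 in Adult) showed the same direction as the summed complex V genes, which stood at 4508, 5202 and 4433 CPM at P4, P10 and Adult.

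In Adult, nuclear and mitochondrial sets ordered the classes differently. Nuclear levels were 19230 CPM in inhibitory-like, 14524 in excitatory-like, 13515 in mural-like, 12927 in endothelial-like, 12539 in astrocyte-like, 11722 in OPC-like, 10921 in oligodendrocyte-like and 10208 in microglia-like cells. The ratio to excitatory-like cells was 1.32-fold in inhibitory-like, 0.863-fold in astrocyte-like, 0.752-fold in oligodendrocyte-like and 0.703-fold in microglia-like cells. The inhibitory-like value pools subclasses that differed, with 24509 CPM in Pvalb-like, 16370 in Sst-like and 15884 in Vip-like cells. Sst-like and Vip-like cells were thus above the excitatory-like level but below L5 PT-like cells (17504 CPM). Members at least 1.5-fold lower than in excitatory-like cells numbered 41 of 89 in microglia-like (38.0% of all genes) and 29 of 89 in oligodendrocyte-like cells (39.1%), with 4 (33.5%) and 1 (25.8%) higher. Under TMM scaling, which moved all genes by -0.26 (log2) in the microglia comparison, 65 were lower (44.3%) and 3 higher (28.1%) in microglia-like cells. In inhibitory-like cells 13 of 89 were higher (18.3%) and 0 lower (17.3%), and under TMM scaling, which moved all genes by -0.12 (log2), 4 were higher (15.5%) and 0 lower (20.8%). In astrocyte-like cells 4 of 89 were higher (30.1%) and 6 lower (33.2%), or 4 (27.3%) and 15 (37.7%) under TMM scaling. Medians over the members were -0.54 in microglia-like, -0.43 in oligodendrocyte-like and -0.19 in astrocyte-like cells, against -0.09, -0.24 and -0.09 over all genes. Sdhc was higher in astrocyte-like (127 CPM) than in excitatory-like cells (74.0 CPM, 1.71-fold).

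**Figure D3:**
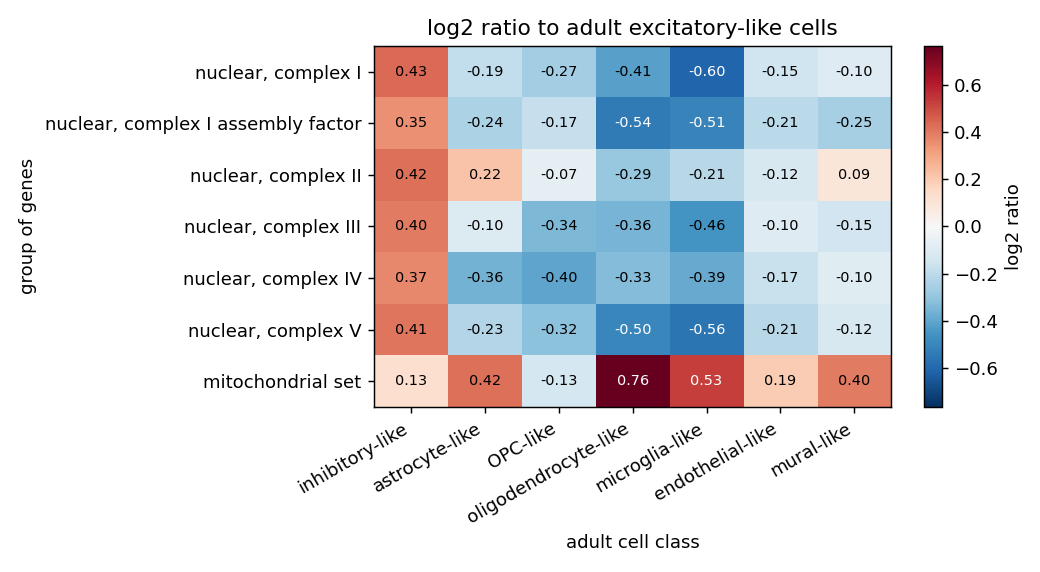
Log2 ratio of summed CPM of each nuclear complex, and of the mitochondrial share, in each adult class to adult excitatory-like cells. Inhibitory-like cells, pooled over subclasses, are positive throughout (0.35 to 0.43 for the nuclear complexes). Within the pool the mitochondrial share is 8.34% in Pvalb-like, 4.70% in Sst-like and 5.40% in Vip-like cells, against 5.69% in excitatory-like cells. Microglia-like and oligodendrocyte-like cells are negative in every nuclear complex and positive for the mitochondrial set (0.53 and 0.76).

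The mitochondrial set is given as a percent of all UMIs, and because cells over 15% were removed its upper end is set in part by that limit. In excitatory-like cells it took 6.20%, 6.50%, 5.73% and 5.69% from P1 to Adult, and in Sst-like cells 5.61%, 6.08%, 5.36% and 4.70%. In Pvalb-like cells it took 6.79%, 7.56% and 8.34% from P4 to Adult. From P4 on the Pvalb-like share was thus higher at each later age while the Sst-like share was lower, and their ratio was 1.12-fold, 1.41-fold and 1.78-fold from P4 to Adult. All 13 mitochondrial genes were higher in adult Pvalb-like than in adult Sst-like cells, from 1.69-fold for mt-Co1 to 2.02-fold for mt-Nd6. Between P4 and P10 in Pvalb-like cells 11 of the 13 were higher, by at most 1.26-fold for mt-Nd5, and mt-Atp8 (0.76-fold) and mt-Nd4l (0.91-fold) were lower. These last 2 genes overlap mt-Atp6 and mt-Nd4 on the same transcripts, so their reads are uncertain.

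Oligodendrocyte-like cells had the highest mitochondrial share of the adult classes together with a low nuclear level. The class of this name went from 6.57% at P10 to 9.67% in Adult (1.47-fold), with all 13 genes higher, and the ratio was 2.06-fold under TMM scaling and 1.474-fold without predicted doublets. The clusters behind the name differed, since the 243 cells at P10 (21.0% predicted doublets) had Cldn11, Mag, Enpp6 and Bcas1 among their top 10 genes, and the 997 adult cells (5.82%) were led by Ermn, Mal and Il33. An adult cluster of 125 cells with 9630013A20Rik, Enpp6 and Mag at its head stayed without a name. Between P10 and Adult the list of 7 oligodendrocyte markers went from 28635 to 76959 CPM in the class, that of 5 OPC markers from 2404 to 1294 and that of 7 astrocyte markers from 2115 to 1376, with none at 0, and their part in the difference was not tested. OPC-like cells, their precursors, stood at 5.77%, 6.60%, 6.77% and 5.19% from P1 to Adult, with all 13 genes lower in Adult than at P10 (0.768-fold). Predicted doublets made up 0.184% of OPC-like cells at P10 and 11.05% in Adult, while excitatory markers went from 440 to 1376 CPM and oligodendrocyte markers from 122 to 1136 CPM, and without predicted doublets the ratio was 0.721-fold. Astrocyte-like cells stood at 6.67%, 8.37% and 7.63% from P4 to Adult. Microglia-like cells stood at 7.19%, 7.85%, 7.87% and 8.21% from P1, in 34, 77, 706 and 1049 cells. In Adult the mitochondrial share relative to excitatory-like cells was 1.70-fold in oligodendrocyte-like, 1.44-fold in microglia-like and 1.34-fold in astrocyte-like cells. Mitochondrial UMIs per nuclear OXPHOS UMI were 4.20 in adult excitatory-like, 3.05 in Sst-like, 3.76 in Pvalb-like, 9.96 in oligodendrocyte-like and 9.31 in microglia-like cells. Of cells that passed the other minimums, 66, 362, 379 and 938 at P1, P4, P10 and Adult were over the mitochondrial limit.

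**Figure D4:**
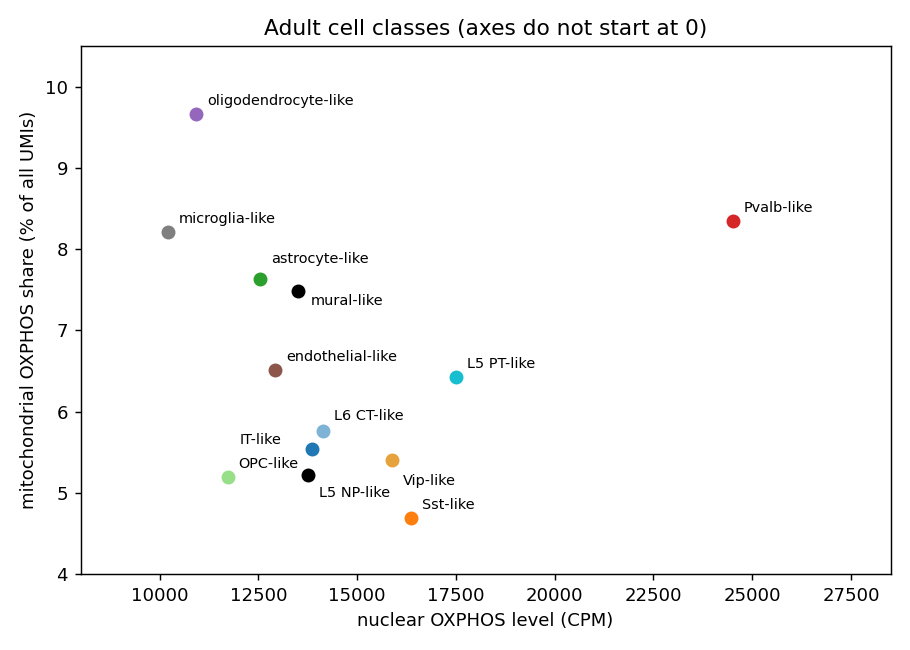
Nuclear OXPHOS level (CPM, horizontal) against mitochondrial share (percent of all UMIs, vertical) for each adult class, 1 point per class, with axes that do not start at 0. Pvalb-like cells lie high on both (24509 CPM, 8.34%), oligodendrocyte-like cells combine 10921 CPM with the highest share (9.67%), and Sst-like cells have the lowest share (4.70%).

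Within the mitochondrial set, mt-Co1, the catalytic core of complex IV, made up 24.5% of the UMIs in adult excitatory-like cells, mt-Cytb of complex III 12.1% and mt-Co2 11.6%. mt-Atp6 made up 10%, mt-Nd4 9.9%, mt-Nd1 9.1%, mt-Nd2 7.4%, mt-Nd5 5.5%, mt-Co3 4.5%, mt-Nd3 3.3% and mt-Nd4l 1.8%. mt-Atp8 made up 0.2% and mt-Nd6, the only member on the other strand, 0.1%. Genes of the set did not move by equal factors. Between adult oligodendrocyte-like and excitatory-like cells the ratio was 1.95-fold for mt-Co1 and 1.92-fold for mt-Atp6 but 1.31-fold for mt-Nd1 and 1.04-fold for mt-Nd5. Between astrocyte-like and excitatory-like cells mt-Co1 was 1.54-fold while mt-Nd1 (0.95-fold) and mt-Nd6 (0.84-fold) were below 1. In excitatory-like cells 12 of 13 genes were lower in Adult than at P4, from 0.62-fold for mt-Atp8 to 0.98-fold for mt-Co1, and mt-Nd6 was 1.32-fold higher.

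Among subunits that exist in tissue-restricted forms, Cox6a2 had the largest adult ratio of Pvalb-like to Sst-like cells. Cox6a2 (chr7:128205435-128206387, minus strand) encodes the heart and skeletal muscle form of subunit 6a. In Pvalb-like cells it stood at 4.58, 49.1 and 327 CPM from P4 to Adult (40, 888 and 2821 UMIs). In Sst-like cells it stood at 1.5, 1.56, 4.18 and 4.03 CPM from P1 to Adult, in Vip-like cells at 0.402, 2.32, 8.59 and 16.0 and in excitatory-like cells at 0.375, 1.63, 4.27 and 1.88. The adult Pvalb-like level was 81.1-fold that of Sst-like cells, and the P10 to P4 ratio in Pvalb-like cells was 10.7-fold (log2 3.42, interval 2.97 to 3.92). Cells with a Cox6a2 UMI made up 2.68%, 40.0% and 91.2% (exact interval 88.2% to 93.6%) of Pvalb-like cells at P4, P10 and Adult, and 0.606%, 5.70% and 44.1% after thinning to 2000 UMIs. In excitatory-like cells, taken as the comparison for free RNA, the shares were 2.0%, 6.20% and 2.96%, at median depths of 14296, 23967 and 18555 UMIs, and 0.299%, 0.590% and 0.458% after thinning. At P4 the thinned shares rested on 7 Pvalb-like and 37 excitatory-like cells with a UMI. Their exact intervals overlapped (0.244% to 1.24% and 0.210% to 0.411%), and at this depth the P4 shares leave the comparison undecided. The summed P4 levels were 4.58 CPM in Pvalb-like and 1.63 CPM in excitatory-like cells, and the difference was not tested. At P10 and in Adult the Pvalb-like shares were above those of excitatory-like cells before and after thinning. The common form Cox6a1 stood at 434, 520 and 537 CPM in Pvalb-like cells, so its levels stayed within 1.24-fold while Cox6a2 became higher.

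Ndufa4l2 and Cox4i2, both known to respond to low oxygen, had their highest levels in vascular classes. Ndufa4l2 (chr10:127514967-127517154, plus strand) stood at 457, 888 and 257 CPM in mural-like cells at P1, P10 and Adult, at 114 and 73.1 CPM in endothelial-like cells at P10 and in Adult, and at no more than 2.73 CPM in any neuronal or glial class. The list of 6 mural markers, none at 0, summed to 5405 and 3450 CPM in those endothelial-like cells. The highest single mural marker gave 4281 and 2529 CPM, and the part of mural RNA in the endothelial-like values was not tested. A Ndufa4l2 UMI was found in 100%, 86.3% and 56.4% of mural-like cells at P1, P10 and Adult and in 0.668% to 0.899% of excitatory-like cells. Cox4i2 (chr2:152754173-152765037, plus strand) stood at 135, 209 and 50.6 CPM in mural-like cells and at 31.2 and 16.3 CPM in endothelial-like cells. These classes are small, with 37, 51 and 163 mural-like cells at P1, P10 and Adult. The adult mural-like cluster was led by Mrc1, F13a1, Acta2 and Myh11, and in it the microglia marker list summed to 4555 CPM (56.2 and 116 at P1 and P10). The mural list summed to 12597 CPM (45098 at P10), with 6505 CPM from its highest single marker (35939 at P10). The part of these other markers in the lower adult values was not tested.

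**Figure D5:**
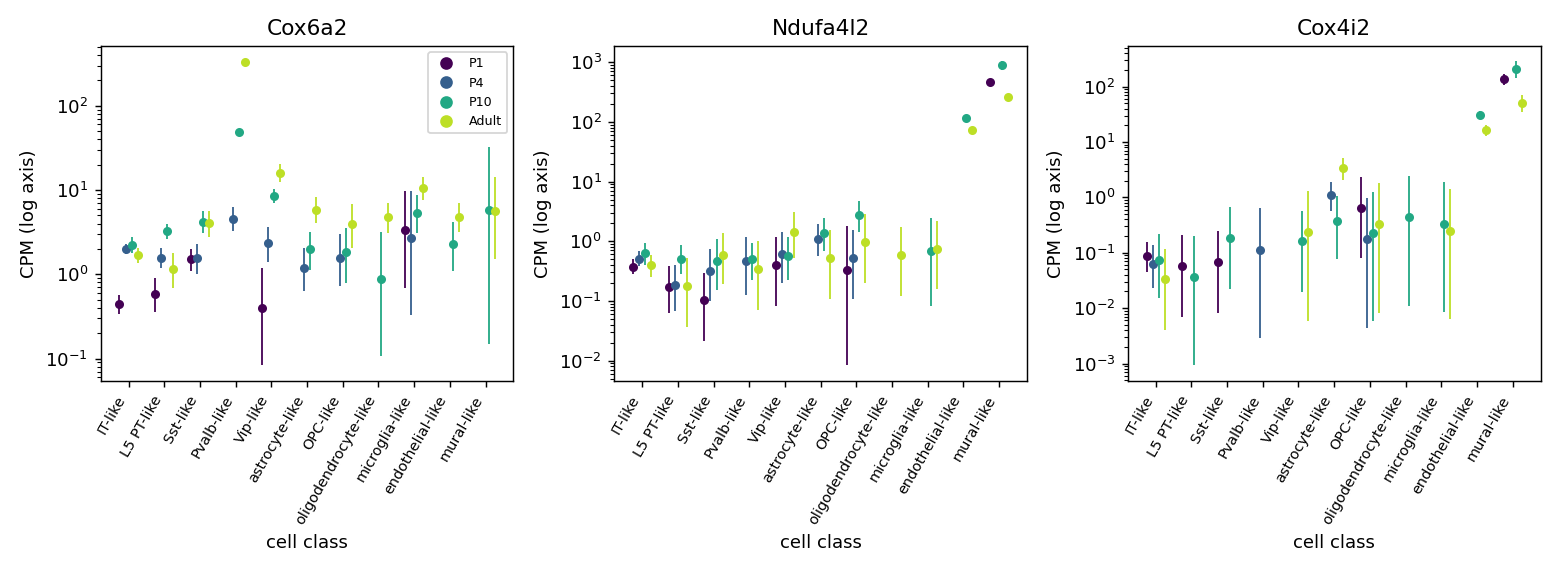
CPM of Cox6a2, Ndufa4l2 and Cox4i2 on a log axis by class and age, with exact 95% Poisson intervals for counting error as bars and values of 0 not drawn. Cox6a2 climbs to 327 CPM in adult Pvalb-like cells, and Ndufa4l2 and Cox4i2 reach 888 and 209 CPM in mural-like cells at P10.

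Some further members differed between classes at each of the 4 ages. Cox7a2l (chr17:83501918-83517330, minus strand), a factor in joining respiratory complexes into supercomplexes, stood at 254, 231, 368 and 342 CPM in microglia-like cells against 122, 138, 165 and 112 in excitatory-like cells, 3.05-fold in Adult. Microglia-like cells, which numbered only 34 at P1 and 77 at P4, were therefore above excitatory-like cells at all 4 ages for this gene. Their summed nuclear level in Adult was nevertheless the lowest. Cox5a stood at 270, 347, 396 and 291 CPM in Sst-like cells against 152, 220, 258 and 202 in excitatory-like cells, higher at each age. Cox8b and Cox8c, forms of subunit 8 known from muscle and testis, had at most 0.354 CPM in any class listed here.

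Vascular and microglial classes had lower nuclear OXPHOS levels in Adult than at P10. Endothelial-like cells, which line vessels, went from 17138 to 12927 CPM (0.754-fold), with a median log2 ratio of -0.39 over the members and 0.01 over all genes. Of 87 members 18 were at least 1.5-fold lower (17.7% of all genes) and 0 higher (20.4%), 7 of 17 complex V genes among the lower ones, so the share of lower members was near that of all genes while the median was below it. Red blood cell markers in the class summed to 7276 CPM at P10 and 4134 in Adult. Mural markers summed to 5405 and 3450 CPM, with 4281 and 2529 CPM from the highest single marker. Over the same ages excitatory markers went from 820 to 1585 CPM, astrocyte markers from 607 to 1260, oligodendrocyte markers (Mog at 0 at P10) from 109 to 955 and microglia markers from 156 to 556 CPM, and the part of these lists in the difference was not tested. Mural-like cells went from 18811 to 13515 CPM (0.718-fold) in 51 and 163 cells, with 0% and 11.7% predicted doublets. Over the same ages the mural list fell from 45098 to 12597 CPM in them, with 35939 and 6505 CPM from its highest single marker. The microglia list rose from 116 to 4555 CPM, and the part of both lists in the mural-like values was not tested. Microglia-like cells went from 13266 to 10208 CPM (0.770-fold), and 12 of 86 members were lower (18.4% of all genes) and 1 higher (11.5%). Under TMM scaling the ratio was 0.822-fold, and 5 members were lower (14.9%) and 1 higher (14.4%). In the class the astrocyte list went from 1055 to 577 CPM, the OPC list from 258 to 24.1 CPM and the oligodendrocyte list from 69.2 to 591 CPM, and their part in the difference was not tested.

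In oligodendrocyte-like cells the nuclear set went from 13916 CPM at P10 to 10921 in Adult, and the direction depended on the scaling. The ratio of the set was 0.785-fold by CPM and 1.07-fold under TMM scaling, and the median log2 ratio of the members was -0.33 and 0.12. By CPM 24 of 84 members were at least 1.5-fold lower (39.2% of all genes) and 0 higher (14.8%). Under TMM scaling, which moved all genes by 0.45 (log2), 6 were higher (26.5%) and 1 lower (20.9%).

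Most genes of the citric acid cycle and glycolysis were also higher at P10 than at P4 in Pvalb-like cells, and the differences between lists were not tested. From P4 to P10, 11 of 12 tested citric acid cycle genes and 14 of 16 glycolysis genes were at least 1.5-fold higher (median log2 1.04 and 1.12), against 11 of 77 mitochondrial ribosome genes (0.29) and 1 of 36 proteasome genes (0.11), beside 17.6% of all genes. Idh3a of the citric acid cycle went from 176 to 426 CPM and Aldoa of glycolysis from 386 to 1289 CPM. In Sst-like cells 3 of 12 citric acid cycle genes and 9 of 16 glycolysis genes were higher (12.7% of all genes). Of 17 tested regulators of mitochondrial gene expression, 5 were higher and 3 lower in Pvalb-like cells (median -0.03), beside 17.6% and 25.1% of all genes. Ppargc1a, the coactivator PGC-1alpha, went from 201 to 367 CPM, Esrra from 38.8 to 70.2, Esrrg, an ERR receptor, from 20.4 to 58.7, and Nrf1, the factor of the promoter palindrome, was 0.64-fold. In Adult 8 of 18 regulators were higher in Pvalb-like than in Sst-like cells (11.7% of all genes) and 0 lower (10.6%), among them Ppargc1a (351 against 123 CPM) and Esrrg (156 against 21.6 CPM). In excitatory-like cells from P4 to Adult, where 26.5% of all genes were higher and 33.4% lower, 13 of 16 glycolysis genes were higher (median 1.112), 3 of 13 citric acid cycle genes were higher and 1 lower, 3 mitochondrial ribosome genes were higher and 15 of 77 lower, and 1 proteasome gene was higher and 13 of 37 lower. The shares of lower proteasome and mitochondrial ribosome genes were thus near and below that of all genes.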

How the data were processed

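The authors deposited raw UMI counts per cell and gene for 4 libraries, made with the BD Rhapsody WTA Analysis Pipeline (version 1.11 for P1 and 1.8 for P4, P10 and Adult, per the file headers) on mm10 with GENCODE vM19. The deposited counts were used as they are. Median depth per kept cell was 11065 to 25800 UMIs. Members and lists were chosen with earlier results of these data known.

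Cells with at least 1000 UMIs, 1000 genes and at most 15% mitochondrial UMIs were kept. Within each age, 2000 variable genes, 30 principal components, 20 neighbours and Leiden resolution 0.5 gave 84 clusters in all (scanpy 1.11.5, Python 3.11.15). OXPHOS, citric acid cycle, glycolysis, regulator, mitochondrial ribosome, proteasome, mitochondrial and ribosomal protein genes were left out of clustering. Clusters were named from marker lists, with score thresholds set after the cluster scores were seen. Predicted doublets (Scrublet, expected rate 0.06) numbered 4536 and were kept.

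UMIs were summed per class and age. Ratios carry exact 95% conditional binomial intervals (scipy 1.17.1), single levels exact Poisson and shares exact Clopper-Pearson intervals, all for counting error only. Genes with at least 50 UMIs over both groups were compared, and a gene was called past 1.5-fold. The calculation was tested on simulated counts. Genes named were the mitochondrial members, core subunits, paralog groups, the 5 largest rises and 5 largest falls from P4 to Adult in excitatory-like cells, the 5 largest class ratios in Adult and the member with the most UMIs of each complex. Of the core subunits, 1 is not reported here. Others (Atp5k, Ndufa11, Cox7a2, Sdhc, Idh3a, Aldoa and the regulators) were chosen after their values were seen. Gene positions are from GENCODE M21 (GRCm38). Alternatives were other denominators, edgeR 4.0.16 TMM scaling, stricter cell filters, no doublets, Leiden resolution 1.0, cells thinned to 2000 UMIs, means over cells, no mitochondrial limit, the top member left out, 2-fold and a 200 UMI minimum. The Pvalb-like and oligodendrocyte-like results and their alternatives were added after seeing the data.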

Additional observations from a re-analysis of the deposited data

Results flagged for a closer look

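Several ratios between ages went in opposite directions in a pair of classes, and in each case the difference between the classes was not tested, because each age is 1 library. The nuclear set from P4 to Adult was 1.07-fold in excitatory-like cells, but 0.908-fold in astrocyte-like, 0.855-fold in OPC-like and 0.733-fold in microglia-like cells. Under TMM scaling the astrocyte-like ratio was 1.013-fold, on the same side as the excitatory-like one (1.112-fold), and the OPC-like and microglia-like ratios were 0.848-fold and 0.864-fold. Predicted doublets made up 20.4% of astrocyte-like cells at P4 and 0.817% in Adult, and 24.7% of the 77 microglia-like cells at P4 and 0.191% in Adult. Over these ages the astrocyte list went from 10180 to 31893 CPM and the excitatory list from 1158 to 752 CPM in astrocyte-like cells, and the excitatory list from 1074 to 477 CPM and the oligodendrocyte list from 46.4 to 591 CPM in microglia-like cells. In OPC-like cells the astrocyte list went from 703 to 1937 CPM and the excitatory list from 1054 to 1376 CPM, with 15.8% and 11.05% predicted doublets, and the part of these markers in the ratios was not tested. Without predicted doublets the nuclear ratios were 0.936-fold in astrocyte-like, 0.810-fold in OPC-like and 0.771-fold in microglia-like cells. The mitochondrial share over the same ages was 0.875-fold in excitatory-like cells, against 1.14-fold in astrocyte-like and 1.05-fold in microglia-like cells, the last at 0.985-fold without predicted doublets. Excitatory-like cells therefore had a lower mitochondrial share and a higher nuclear level at the later age, and by CPM and with predicted doublets kept astrocyte-like and microglia-like cells had the reverse. In interneurons, the mitochondrial share from P4 to P10 was 1.113-fold in Pvalb-like and 0.882-fold in Sst-like cells, and from P4 to Adult 1.23-fold and 0.772-fold. In the oligodendrocyte lineage, the mitochondrial share from P10 to Adult was 1.47-fold in oligodendrocyte-like and 0.768-fold in OPC-like cells.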

How the results depend on the processing

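No paired analysis was possible because each age is 1 library and all 4 carry the same replicate number, and no library could be left out of a group of 1. None of the 9 ratios given with their alternatives here changed direction. Of the other ratios between ages (alternatives added after seeing the data), TMM scaling turned the nuclear sets of oligodendrocyte-like cells from P10 to Adult (0.785 to 1.07), of astrocyte-like cells from P4 to Adult (0.908 to 1.013) and of Pvalb-like cells from P10 to Adult (0.993 to 1.017), and the mitochondrial sets from P10 to Adult of excitatory-like (0.993 to 1.001) and IT-like cells (0.944 to 1.018). Removing doublets turned that Pvalb-like ratio (1.004) and the mitochondrial set of microglia-like cells from P4 to Adult (1.05 to 0.985). With all genes in the denominator (non-mitochondrial genes for mitochondrial shares), TMM scaling and the strict filter (2000 UMIs, 1500 genes, 10% mitochondrial), the nuclear ratio of Adult to P4 in excitatory-like cells moved from 1.07 to 1.10, 1.112 and 1.09, and the mitochondrial ratio from 0.875 to 0.868, 0.882 and 0.841. With doublets removed, cells thinned, means over cells and the top member (Atp5a1 or mt-Co1) left out they were 1.08, 1.02, 1.02 and 1.07, and 0.877, 0.925, 0.922 and 0.846, and 0.910 with no mitochondrial limit. The nuclear P4 to P1 ratio (1.30) became 1.5 with TMM, 1.31 with the strict filter, 1.30 at resolution 1.0, 1.30 thinned and as means, and 1.29 without Atp5a1. In Adult, inhibitory over excitatory (1.32) became 1.31, 1.22 (TMM), 1.32 (strict), 1.34 (no doublets), 1.33 (thinned) and 1.34 (means). Nuclear astrocyte over excitatory (0.863) became 0.847, 0.783 (TMM), 0.856 (strict), 0.854 (resolution 1.0), 0.913 (thinned) and 0.923 (means), and the mitochondrial ratio (1.34) became 1.37, 1.24 (TMM), 1.28 (strict), 1.33 (resolution 1.0), 1.19 (thinned and means), 1.28 (no mt-Co1) and 1.32 (no limit). The Pvalb-like P10 to P4 ratio (1.62) became 1.79 (TMM), 1.602 (strict), 1.66 (no doublets), 1.601 (means) and 1.596 (no Atp5a1), and adult Pvalb-like over Sst-like (1.497) became 1.44, 1.54 (strict), 1.57 (no doublets), 1.54 (thinned) and 1.51 (means). Mitochondrial oligodendrocyte over excitatory (1.70) became 1.77 (non-mitochondrial denominator and TMM), 1.53 (strict, thinned and means), 1.71 (no doublets), 1.62 (no mt-Co1) and 1.69 (no limit). At 2-fold, 1 member in excitatory-like cells (9 at 1.5-fold) and 13 in Pvalb-like cells (62 at 1.5-fold) were called, and the other alternatives gave 8 to 10 and 60 to 71. The share of all genes past 2-fold was not computed, so the 2-fold counts cannot be set against a background. For the other alternatives that share was computed under TMM scaling only. Depth limits members at few UMIs, such as Cox6b2 and Cox7b2.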
